A study of Caenorhabditis elegans with 15 samples.

Results

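The gene expression response of wild-type Caenorhabditis elegans to rapamycin was read from 6 of the 15 arrays of the study, 3 of N2 worms treated with rapamycin in 2% DMSO and 3 of N2 worms given 2% DMSO alone, which are called N2 controls here. They were chosen by their sample titles. N2 is the laboratory wild type. Both groups were synchronised, grown at 20 °C, moved to treatment plates at the L4 moult and collected as whole worms 72 h later. No other difference in genotype or age is stated. Whether larval offspring were collected with the adults is not stated either. Of the 9 other arrays, those of eat-2 mutants, 3 with rapamycin and 3 with vehicle, were used to test whether a change on rapamycin differed between strains. The other 3 were of N2 worms treated with allantoin in 2% DMSO. All 9 entered 1 alternative fit. Each value is a log2 signal of a probe set on the Affymetrix C. elegans Genome Array, so that 1 unit is a 2-fold difference.

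Rapamycin binds an FK506-binding protein, and the pair inhibits the kinase TOR (let-363 in the worm), which promotes growth and translation and restrains autophagy when nutrients are plentiful. TOR complex 1 contains Raptor (daf-15) and TOR complex 2 contains Rictor (rict-1). The comparison asks which genes differ in mRNA level between drug and vehicle in worms that feed normally. An array of whole worms reads every tissue together, so that for any tissue a smaller number of its cells and less RNA in each cell cannot be told apart. Hermaphrodites of this age carry stored sperm, oocytes and, unless reproduction is blocked, embryos, and these add to the signal. The lifespan plates of the study held FUDR, an inhibitor of DNA synthesis, but whether the array plates did is not stated in the sources used here.

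The 3 rapamycin arrays were close to each other and the 3 control arrays were not. Over all probe sets the correlation between pairs of arrays was 0.9939 to 0.9962 among rapamycin arrays. Among controls it was 0.9669 between arrays 1 and 2, 0.976 between 1 and 3, and 0.9815 between 2 and 3. Control 2 correlated at 0.9823 to 0.9843 with the rapamycin arrays, above its correlation with either of the other controls, whereas control 1 reached 0.938 to 0.9411 and control 3 reached 0.9592 to 0.9624 with them. The median SD of a probe set was 0.121 on rapamycin and 0.21 in controls. Control 2 was the highest control for 990 of the 1162 probe sets called higher on rapamycin, and the lowest control for 631 of the 735 called lower. Results that turn on this array are therefore also given without it. As it is the control nearest to the rapamycin arrays, leaving it out favours larger changes and more calls. Counts and p-values without it are thus no separate support for a change. Whether the 3 arrays of a group came from separate cultures is not stated, so that a limma p-value measures only the spread between these samples, which may be technical.

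**Figure D1:**
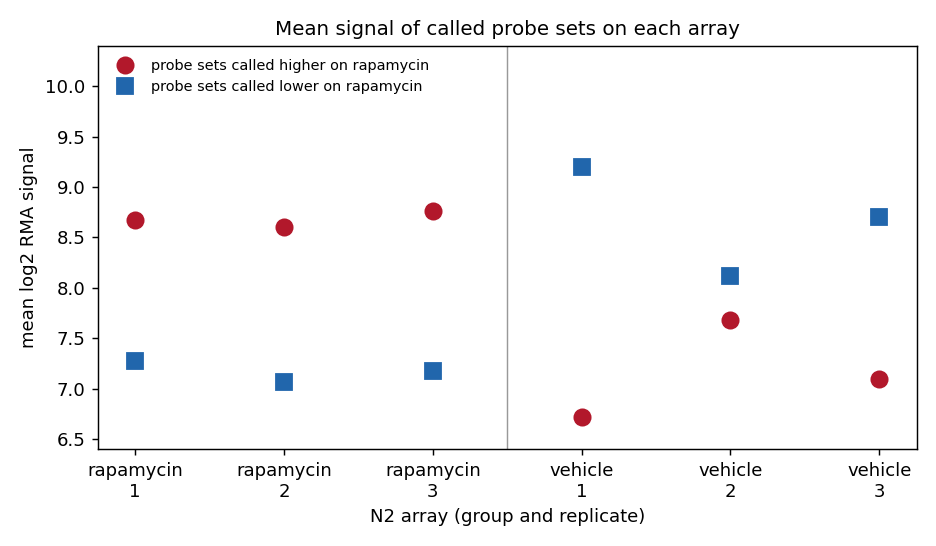
Mean log2 RMA signal (vertical axis) of the 1162 probe sets called higher and the 735 called lower on rapamycin, on each of the 6 N2 arrays (horizontal axis, rapamycin left, vehicle right; 1 point per array and set). On rapamycin the higher set averaged 8.6 to 8.76, above the 6.72 to 7.68 of the controls, and the array nearest to the rapamycin arrays in both sets was control 2.

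In all, 22548 probe sets were tested and 1897 of them (8.41%) passed the threshold that the methods state, an unadjusted p under 0.05 with a change of more than 2-fold. Genes and probe sets that pass it are called below, and "rose" and "fell" are used only of these. Of the calls, 1162 were higher and 735 lower in rapamycin-treated worms, which makes 61.3% higher, against 50.1% higher (956 and 954) when each array was centred on its median. At a Benjamini-Hochberg adjusted p under 0.05, limma returned 2116 probe sets (9.38%), 1288 higher and 828 lower. Both rules were met by 1077, of which 687 were higher and 390 lower. Changes over 4-fold were seen for 160 probe sets called higher and 77 called lower, and changes over 8-fold for 8 called higher and 11 called lower. With 1 probe set for each of 17118 genes, 972 genes (5.68%) were called higher and 585 (3.42%) lower, and 6.17% and 3.6% had an adjusted p under 0.05 in these directions. At an unadjusted p under 0.05, 16.8% of the genes were higher and 16.4% lower. Whatever their p, 8243 of the 17118 genes had a positive change and 8875 a negative one. These shares are the background for every count of list members below. The rapamycin and control arrays did not overlap for 39.9% of all probe sets and for 1869 of the 1897 calls. Where a called gene had several probe sets, which was so for 216 genes, all of them had the same sign in 208 genes and all were called in 117. Without control 2 the called probe sets numbered 3082 and those at an adjusted p under 0.05 numbered 6889. The latter numbered 1753 and 325 without controls 1 and 3, and 32, 102 and 0 without rapamycin arrays 1, 2 and 3. At the study's threshold 1010 calls, 648 higher and 362 lower, were made whichever of the 6 arrays was left out.

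Genes for the worm's surface gave many of the largest increases. The highest changes were those of the collagen gene col-138 and of rml-3, named for the enzymes that make the activated form of the sugar rhamnose. The signal of rml-3 was 12.38, 12.37 and 12.33 in rapamycin-treated worms, against 8.82, 9.64 and 8.60 in N2 controls. It rose by 3.34 (SE 0.27, limma adjusted p = 0.00728), about 10.1-fold. For col-138 the signals were 10.49, 10.08 and 11.05 in rapamycin-treated worms and 6.49, 7.89 and 7.09 in N2 controls. That gene rose by 3.39 (SE 0.40, limma adjusted p = 0.0165). In both genes control 2 was the highest control and still lay more than 2-fold below the lowest rapamycin array. Of the other rml genes measured, rml-4 rose by 1.09 (limma adjusted p = 0.0342), and rml-1 and rml-5, with changes of -0.57 and 0.64, were not called. The gene glf-1, which encodes UDP-galactopyranose mutase, an enzyme of the surface glycans, had signals of 10.13, 9.91 and 10.01 on rapamycin and 6.25, 8.01 and 6.86 in controls, and rose by 2.97 (limma adjusted p = 0.022).

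Cuticle collagens form the worm's exoskeleton, which is secreted by the epidermis anew at every moult. Of 146 collagen genes, 35 rose and 3 fell, against a background of 5.68% higher and 3.42% lower, and the median change was 0.39, against -0.01 over all genes. The largest increases after col-138 were those of col-49 (3.16), col-38 (3.04) and col-71 (2.81). Collagens named for the body shape of their mutants were among them: dpy-5 rose by 2.63, sqt-1 by 2.56, bli-2 by 2.36, dpy-9 by 2.13, dpy-7 by 2.1, rol-6 by 2.04 and lon-3 by 1.95. The signals of dpy-7 were 9.37, 9.35 and 9.49 in rapamycin-treated worms, against 6.82, 7.98 and 7.12 in N2 controls. The 3 collagens that fell were dpy-14 (-2.61), col-101 (-2.25) and dpy-17 (-2.21), with limma adjusted p of 0.0635, 0.122 and 0.0579. In these 3 the controls spread widely, as in dpy-14, with 5.63, 5.42 and 5.41 on rapamycin and 9.64, 6.63 and 8.01 in controls. When arrays were left out in turn, between 30 and 42 collagens were called higher, the most without control 2, and 6 in place of 3 were called lower without control 3.

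The apical matrix is the layer that moulds each new cuticle. Of 70 genes of moulting and of this matrix, 20 rose and 1, cutl-25 (-1.75, limma adjusted p = 0.0563), fell, with a median change of 0.47. The patched-related gene ptr-4 rose by 2.97, the Kunitz protease inhibitor mlt-11 by 2.89, the angiotensin-converting-enzyme-like acn-1 by 2.38 and the cuticlin cut-2, whose probe set cross-hybridises, by 2.33. The signals of acn-1 were 9.09, 9.61 and 9.61 in rapamycin-treated worms and 7.08, 7.52 and 6.58 in N2 controls, and its limma adjusted p was 0.0157. The matrix proteins noah-2 (2.27), fbn-1 (2.09), noah-1 (1.80) and let-653 (1.46) rose too. Between 17 and 23 of the list were called higher when arrays were left out in turn.

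The lipocalin-related lpr genes, some of which act in that matrix, were grouped after their values had been seen, so that their count is a description. Of 7, 6 rose: lpr-6 by 2.99, lpr-5 by 2.75, lpr-4 by 2.67, lpr-1 by 2.25, lpr-3 by 2.1 and lpr-7 by 1.33, all with limma adjusted p under 0.05. The genes lpr-1 and lpr-3 also count in the matrix list. The signals of lpr-6 were 10.17, 10.88 and 10.32 on rapamycin, against 7.38, 7.95 and 7.06 in controls. The bus genes, named for mutants that resist swelling by a bacterial pathogen of the surface, were grouped in the same way, and 8 of 14 rose, led by bus-24 (2.38) and bus-28 (1.69).

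Worms lack a hedgehog of the fly type but have large families of hedgehog-related secreted proteins (grd, grl, wrt, qua) and of patched-related membrane proteins (ptr), many of them made in the epidermis. Of 83 such genes, 25 rose and 0 fell in limma (3 were lower at an unadjusted p under 0.05), with a median change of 0.30. Among the secreted proteins, grd-3 rose by 2.61, grl-15 by 2.43, grl-7 by 2.28 and wrt-1 by 2.26, and among the patched-related ones ptr-15 rose by 1.78 and ptr-10 by 1.63, and ptr-4 and qua-1 count in the matrix list too. The signals of grl-15 were 10.94, 10.78 and 10.95 in rapamycin-treated worms and 7.33, 9.72 and 8.35 in N2 controls, so that control 2 lay closer to the rapamycin arrays than to control 1. Without control 2, 32 of the 83 were called higher, and without each other array 22 to 24.

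Of 19 epidermal markers, 5 were called higher (rol-6, dpy-7, let-805, wrt-2 and che-14, of which rol-6, dpy-7 and wrt-2 are also in the lists above) and 0 lower, and 1 was lower at an unadjusted p under 0.05. Without control 3, 3 were called higher and 1 lower. The limma adjusted p of let-805 was 0.0589. The summed linear signal of the list was 16318 to 21397 on rapamycin and 10239 to 14933 in controls, without overlap. Of 22 regulators of epidermal timing, blmp-1 alone was called: it rose by 1.63 (limma adjusted p = 0.0328), while the changes of the moulting receptor nhr-23 and of nhr-25 were 0.46 and 0.27. Without control 2, 3 of these regulators were called higher and 2 lower, and without rapamycin array 1, 3 were called higher. The part of a larger share of epidermal RNA in the counts above was not tested.

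**Figure D2:**
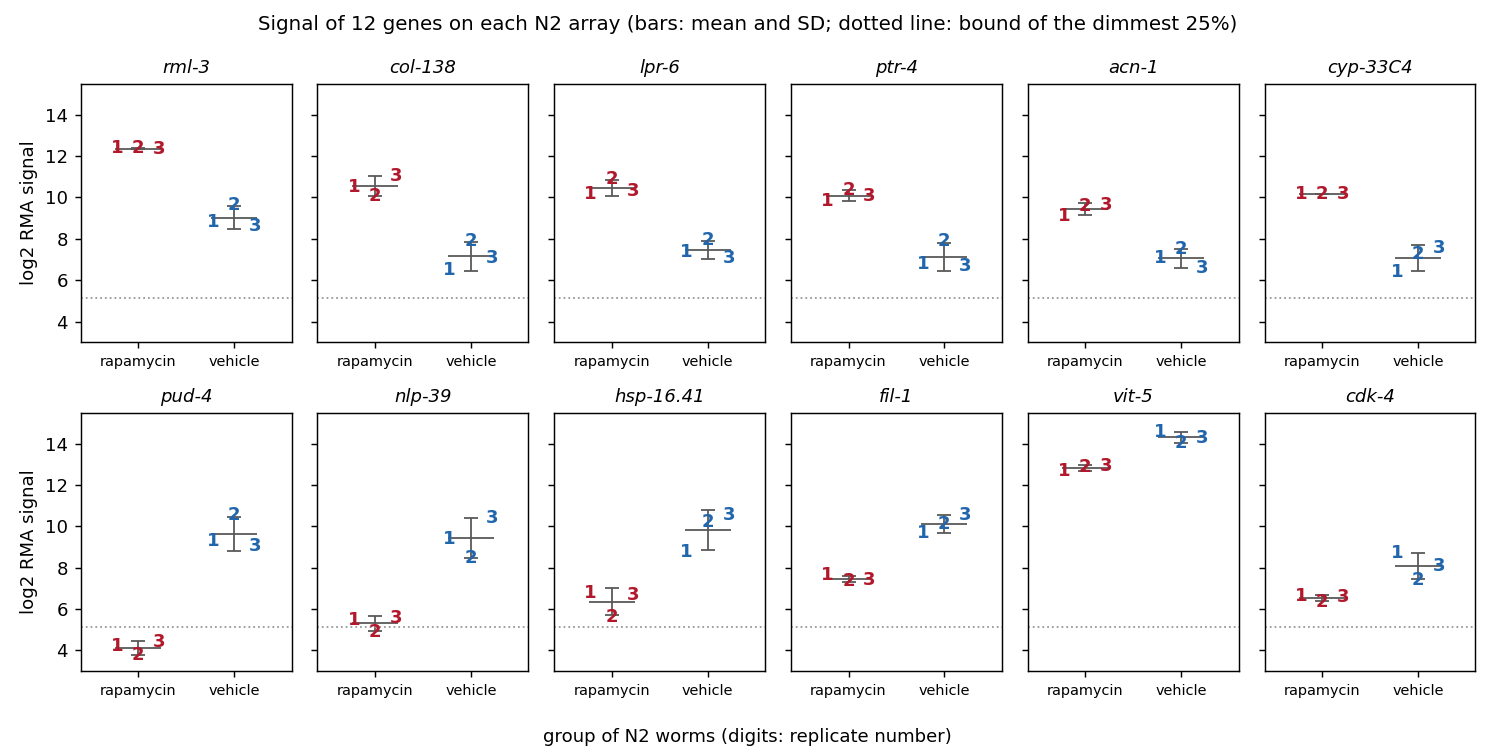
Log2 RMA signal (vertical axis) of 12 genes on each N2 array, with rapamycin left and vehicle right in each panel (digits, replicate number; horizontal bar and whiskers, mean and SD of 3 arrays; dotted line at 5.14, below which lay the dimmest 25%). In all 12 panels the rapamycin arrays lie apart from the controls, which was a condition for picking most of these genes. The signal of pud-4 on rapamycin lies below the dotted line.

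The largest decreases were those of the paired genes pud-4 and pud-3, which encode nematode-specific proteins named for their abundance in daf-2 mutants. The signals of pud-4 were 4.24, 3.77 and 4.42 in rapamycin-treated worms, against 9.28, 10.56 and 9.06 in N2 controls. It fell by 5.49 (SE 0.41, limma adjusted p = 0.00676). For pud-3 they were 5.22, 4.91 and 5.04 in rapamycin-treated worms, against 10.32, 11.17 and 7.10 in N2 controls. That gene fell by 4.47 (SE 0.99, limma adjusted p = 0.0461). Both genes were near background on rapamycin, with means below 5.14, under which the dimmest 25% of all probe sets lay and which is called the dim bound here, so that the sizes of these changes are uncertain. The controls of pud-3 spanned over 4 units. The neuropeptide-like gene nlp-39 had signals of 5.50, 4.91 and 5.57 on rapamycin, against 9.39, 8.46 and 10.41 in controls, and fell by 4.10 (limma adjusted p = 0.0164). The unnamed gene C54C8.12 fell by 4.45 (limma adjusted p = 0.0182). Of 28 lipase genes 3 fell and 1 rose, with 5 higher without control 2. Among them fil-1, a lipase known to be induced by fasting, had 7.64, 7.34 and 7.39 on rapamycin and 9.65, 10.11 and 10.55 in controls and fell by 2.65 (SE 0.24, limma adjusted p = 0.00837).

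The inducible small heat shock genes were lower in rapamycin-treated worms. These encode chaperones that bind unfolding proteins and are switched on by heat and other stress. Of 11 small heat shock genes, 5 fell and 2 rose, against backgrounds of 3.42% and 5.68%. The signals of hsp-16.41 were 6.79, 5.62 and 6.69 on rapamycin and 8.74, 10.22 and 10.56 in controls, and it fell by 3.47 (SE 0.54, limma adjusted p = 0.0269). Its neighbour hsp-16.2 fell by 2.98 (limma adjusted p = 0.0314), and hsp-16.21 (-2.83, limma adjusted p = 0.0505), hsp-12.6 (-2.35) and hsp-16.20 (-2.24) fell too, while hsp-43 rose by 1.33 and hsp-12.1 by 1.02. Without control 3 or rapamycin array 1, 1 in place of 2 was called higher. For hsp-12.6 control 1, at 5.09, lay among the rapamycin arrays at 5.10, 4.53 and 4.78, while controls 2 and 3 were at 8.75 and 7.62. It was called in 1 of the 6 fits that left out an array (limma adjusted p = 0.125 with all arrays). Among 64 other chaperones hsp-70 alone was called, at -2.18 with a limma adjusted p of 0.0882, and it too had a control at 7.26 beside others at 9.91 and 9.68, and was not called without control 3 or rapamycin array 2. The metallothionein mtl-2, read by a cross-hybridising probe set, fell by 1.99 (limma adjusted p = 0.00728) and was the single call among 35 redox and metal genes, of which 3 were called lower without control 1 or without control 3.

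Most sperm genes had higher signals on rapamycin, 77 of 89. Of the 89, 18 rose and 0 fell in limma (2 were lower at an unadjusted p under 0.05), with a median change of 0.98. At an adjusted p under 0.05, 8 of the 89 were higher. The regulator fog-3, which commits germ cells to become sperm, had signals of 10.30, 10.41 and 10.35 in rapamycin-treated worms and 7.6, 8.86 and 8.05 in N2 controls. It rose by 2.18 (SE 0.31, limma adjusted p = 0.022). The cytochrome c gene cyc-2.2 rose by 2.45 (limma adjusted p = 0.0808), ssp-16 by 2.24 (0.0655), the sperm phosphatase genes gsp-3 and gsp-4 by 1.89 and 1.63 (0.0824 and 0.11), and spe-4 by 1.65 (0.0325). The mean signal of the list was 9.17, 8.86 and 9.19 on rapamycin and 7.48, 8.78 and 8.51 in controls, so that control 1 stood far below the rest and control 2 just below the lowest rapamycin array. The number called higher was 46 without control 2, 7 without control 1, and 8, 13 and 8 without rapamycin arrays 1, 2 and 3. Probe sets of the near-identical msp genes, which encode the major sperm proteins, and of gsp-3 and gsp-4 can bind each other's RNA. All 23 msp genes had changes between 1.07 and 1.59, of which 4 were called with all arrays, none of them at a limma adjusted p under 0.05, and 23 without control 2.

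Genes of oocytes, eggshell and yolk had mostly negative changes. All 14 eggshell genes had negative changes and 13 had arrays that did not overlap, with a median of -0.84, but 2 passed the 2-fold threshold, egg-3 (-1.15) and egg-1 (-1.02, limma adjusted p = 0.0632). The signals of egg-3, which acts in egg activation, were 10.25, 9.74 and 9.87 on rapamycin and 11.48, 10.79 and 11.03 in controls (limma adjusted p = 0.0362). Of 59 oocyte and germline genes, 4 fell (mex-1 with -1.19, oma-2 with -1.16, nos-2 with -1.02 and mex-6 with -1.01) and 51 had a negative change. The limma adjusted p of mex-1 was 0.0571 and those of the other 3 were under 0.05. Of the 5 yolk protein genes, vit-4, vit-5 and vit-2 fell by 1.55, 1.47 and 1.11 (limma adjusted p of 0.0175, 0.0129 and 0.0265). The calls of vit-4 and vit-5, whose probe sets cross-hybridise, were made whichever array was left out, and that of vit-2 in 5 of these 6 fits. The signals of vit-5 were 12.68, 12.88 and 12.94 in rapamycin-treated worms, against 14.55, 14.05 and 14.28 in N2 controls. Without control 2, 6 eggshell genes and 12 oocyte and germline genes were called lower, and without control 1 the counts were 0 and 1. Without control 3, 2 oocyte genes were called, and without rapamycin array 2 or 3, 1 eggshell gene.

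Cell cycle and DNA replication genes had mostly negative changes, few of them large. Of 95 genes, 92 had a negative change and 72 had arrays that did not overlap, with a median of -0.65, yet 5 fell by more than 2-fold: the replication licensing gene cdt-1 (-1.85), the G1 kinase gene cdk-4 (-1.55), the thymidylate synthase gene tyms-1 (-1.31), the phosphatase gene cdc-25.3 (-1.30) and orc-1 (-1.13). A related phosphatase gene, cdc-25.4, rose by 1.25 (limma adjusted p = 0.0539). The signals of cdk-4 were 6.66, 6.36 and 6.58 on rapamycin and 8.71, 7.42 and 8.10 in controls, and its limma adjusted p was 0.04. At an adjusted p under 0.05, 12 of the list were lower and 1 was higher. Without control 2, 24 were called lower, without rapamycin array 1, 9, and with each array centred on its median, 12. Of 34 histone genes, 0 were called lower in limma (7 at an unadjusted p under 0.05), 20 had a negative change with a list median of -0.2, and his-70, a variant, was called higher at 1.15 (limma adjusted p = 0.0529, and not called without control 1).

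Of 45 early embryo genes, 12 fell and 0 rose in limma (6 were higher at an unadjusted p under 0.05), against backgrounds of 3.42% and 5.68%, with a median change of -0.36. At an adjusted p under 0.05, 5 were lower and 2 higher, and 1 was called higher without control 1 or rapamycin array 1. The vet genes, for very early transcripts, fell by 2.03 (vet-6), 2.02 (vet-1) and 1.97 (vet-2), with limma adjusted p of 0.0776, 0.0429 and 0.0728, and sdz-28, named for its dependence on the embryonic factor SKN-1, fell by 2.94 (0.0526). The signals of vet-1 were 6.67, 6.11 and 6.43 in rapamycin-treated worms, against 9.4, 7.71 and 8.16 in N2 controls. The T-box gene sea-1 fell by 2.15 (limma adjusted p = 0.041), sex-1, read by a cross-hybridising probe set, by 1.6 (0.0866) and ceh-39 by 1.15 (0.0569), 3 genes known to set the sex signal of the embryo. The 4 meg genes, which encode proteins of the germ granules of the embryo and were grouped after their values had been seen, fell by 1.55 to 1.88, each with a limma adjusted p under 0.05. Of 120 homeobox, T-box and bHLH factors, 14 fell, among them ceh-49 (-1.83), hlh-2 (-1.77) and ceh-21 (-1.75), and tbx-34 alone rose (1.32, limma adjusted p = 0.132). Without control 1, 8 factors were called lower and 0 higher, and without rapamycin array 2, 9 were called lower. The early embryo list had a summed linear signal of 9284 to 9656 on rapamycin and 11212 to 20164 in controls, and 8 to 15 of it were called lower when arrays were left out in turn, the most without control 2.

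F-box proteins choose targets for degradation and the Skp1-related skr proteins couple them to the ubiquitin ligase. Of 395 F-box and MATH-BATH genes, 40 fell and 12 rose, against backgrounds of 3.42% and 5.68%. Grouped by symbol after their values had been seen, 27 of 95 fbxb genes fell and 0 rose, led by fbxb-17 (-2.49), fbxb-85 (-2.37) and fbxb-15 (-2.03), but 0 of the 95 had a limma adjusted p under 0.05 with all arrays, while 7 of 44 fbxc genes fell and 4 had an adjusted p under 0.05 and were lower. Without control 2, 46 fbxb and 11 fbxc genes were called lower. The fbxa genes went both ways, with 9 of 171 higher and 5 lower, close to the shares over all genes. Of 19 skr genes, 8 fell, from skr-10 (-2.09, limma adjusted p = 0.0474) to skr-16 (-1.05, limma adjusted p = 0.0527). Of the 8, skr-10 alone had an adjusted p under 0.05. The signals of fbxb-17 were 6.23, 5.91 and 6.13 in rapamycin-treated worms, against 10.06, 7.52 and 8.15 in N2 controls, with control 1 far above the rest. The number of the 395 called lower was 68 without control 2, 16 without control 1 and 20, 14 and 14 without rapamycin arrays 1, 2 and 3, and the number called higher was 25 without control 2 and 3 without control 1. Members of these families resemble each other, and their probe sets may be shared.

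**Figure D3:**
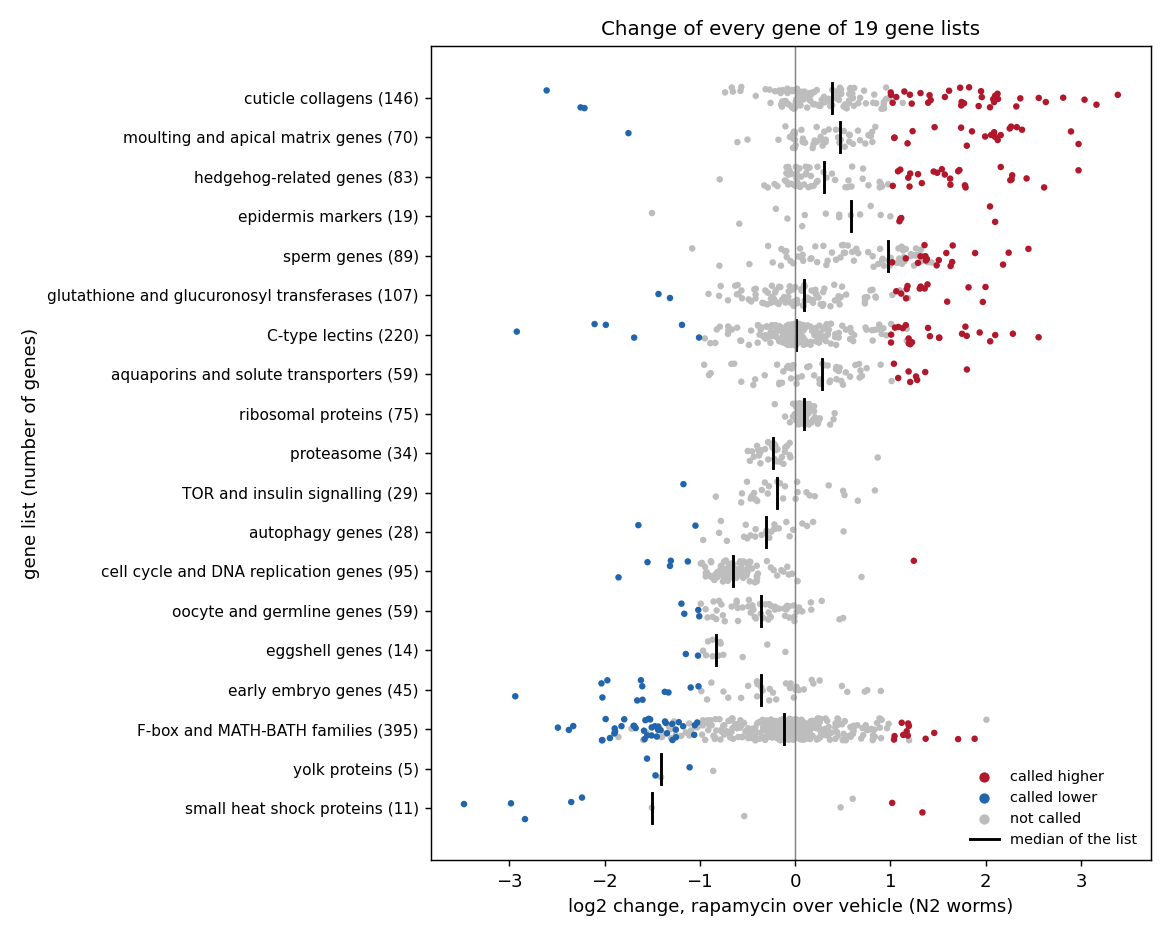
Log2 change, rapamycin over vehicle in N2 worms (horizontal axis), of every gene of 19 lists (vertical axis; 1 point per gene, red called higher, blue called lower, grey not called; black bar, median). Calls in the lists of the cuticle, moulting and hedgehog-related proteins lie almost all to the right, those of early embryo genes to the left, and the ribosomal proteins, between -0.21 and 0.41, hold no call.

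**Figure D4:**
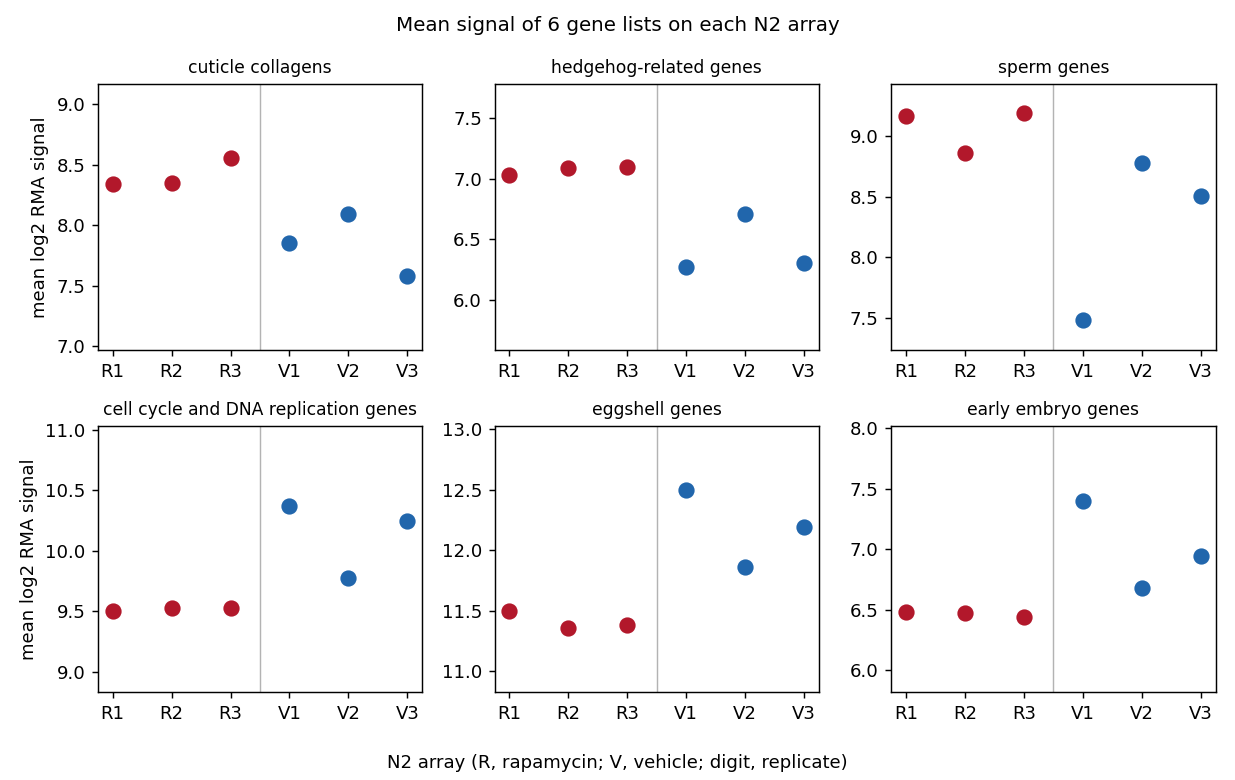
Mean log2 RMA signal (vertical axis) of 6 gene lists on each N2 array (horizontal axis; R, rapamycin; V, vehicle; 1 point per array; each panel spans the same number of log2 units). Among controls V2 is the nearest to the rapamycin arrays in all 6 lists, and V1 is the farthest in all but the collagens, where V3 is.

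The mRNA of the kinase that rapamycin inhibits was not called. The signals of let-363 were 10.01, 10.09 and 10.12 in rapamycin-treated worms and 10.04, 10.05 and 10.04 in N2 controls, a change of 0.03 (95% CI -0.19 to 0.24). Of 29 TOR and insulin signalling genes, pdk-1, which encodes a kinase upstream of AKT, was the only call. It had 8.47, 8.96 and 8.65 on rapamycin and 10.26, 9.34 and 10 in controls, and fell by 1.17 (SE 0.26, limma adjusted p = 0.0462). At an adjusted p under 0.05 without the 2-fold threshold, 4 genes were lower, among them pdk-1, aap-1 (-0.57) and rict-1 (-0.56), and sgk-1 (0.66) was higher. The changes of the other genes of the TOR complexes were -0.42 for daf-15 and -0.28 for sinh-1, those of the Rag GTPases raga-1 and ragc-1 were -0.35 and -0.43, and those of the S6 kinase gene rsks-1 and of rheb-1 were 0.15 and -0.11. The receptor gene daf-2 had -0.13 and the transcription factor genes daf-16, hlh-30, pha-4 and skn-1 had 0.52, 0.50, 0.84 and -0.19. Without control 1, pdk-1 was not called, and without control 2, 2 genes of the list were called lower and 1 higher.

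Of the genes that the study lists as predicted rapamycin targets and that were examined here by name, none was called with all 6 arrays. The changes were 0.21 for rps-6, 0.15 for eef-2, -0.12 for fkb-6, -0.20 for gsy-1, -0.42 for atg-5 and -0.89 for pcn-1, the clamp of DNA replication, which had a limma adjusted p of 0.038 and was called without control 2 (-1.08). Of 28 autophagy genes, 24 had a negative change, 6 were lower at an adjusted p under 0.05 and 2 fell: epg-2 by 1.65 (limma adjusted p = 0.0932) and atg-16.1 by 1.05 (limma adjusted p = 0.0277). None of the 28 was higher at an unadjusted p under 0.05 in limma, and 0 were called lower without control 1 and 1 without rapamycin array 2.

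FK506-binding proteins are prolyl isomerases and include the partner through which rapamycin reaches TOR. They were singled out after their values had been seen. Of 8 fkb genes, fkb-5, fkb-3 and fkb-4 rose and 0 fell. The signals of fkb-5 were 11.31, 11.26 and 11.25 on rapamycin and 9.19, 9.47 and 8.68 in controls, and it rose by 2.16 (SE 0.20, limma adjusted p = 0.00926). The gene fkb-3 rose by 1.22 (limma adjusted p = 0.046) and fkb-4 by 1.15 (limma adjusted p = 0.0223). The calls of fkb-5 and fkb-4 were made whichever array was left out, and that of fkb-3 was not. The small, abundant members fkb-1 and fkb-2 had changes of 0.06 and -0.13, and of the 8 genes none had a negative change at an unadjusted p under 0.05.

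No gene of the ribosome, of translation, of the proteasome or of the respiratory chain was called. Among 75 ribosomal protein genes the changes ran from -0.21 to 0.41, with 0 called by limma in either direction (3 higher and 0 lower at an unadjusted p under 0.05). Their median was 0.10, against -0.01 over all genes. With each array centred on its median it was -0.01, against -0.12 over all genes. Of the 75 genes, 69 had a positive change and 6 a negative one, all of them small. Also, 0 of 39 translation factors, 0 of 34 proteasome genes and 0 of 50 mitochondrial respiratory chain genes were called by limma, with changes from -0.93 to 0.57, from -0.5 to 0.87 and from -0.85 to 0.09. At an adjusted p under 0.05, 1 proteasome gene was higher and 1 respiratory chain gene was lower. At an unadjusted p under 0.05 there were 2 higher and 5 lower translation factors, 1 higher and 8 lower proteasome genes, and 0 higher and 4 lower respiratory chain genes. Of the 34 proteasome genes 33 had a negative change, with a median of -0.23. Without control 2, 2 translation factors were called lower, and 1 without each of controls 1 and 3 and rapamycin array 1.

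Enzymes of drug metabolism differed from each other. Cytochromes P450 oxidise foreign compounds and lipids. Of 73 such genes 4 rose and 4 fell (5.48% each), against backgrounds of 5.68% and 3.42%. The neighbouring genes cyp-33C4, cyp-33C5 and cyp-33C3 rose by 3.09, 2.56 and 1.56 (limma adjusted p of 0.00963, 0.00741 and 0.00507). The signals of cyp-33C4 were 10.16, 10.15 and 10.16 in rapamycin-treated worms and 6.38, 7.26 and 7.58 in N2 controls, but its probe set and that of cyp-33C5 cross-hybridise, whereas that of cyp-33C3, with 7.96, 7.84 and 7.85 on rapamycin and 6.18, 6.39 and 6.37 in controls, is not marked as such. The genes cyp-13B2, cyp-25A1, cyp-34A9 and cyp-25A2 fell by 2.02, 1.85, 1.51 and 1.43, all with limma adjusted p under 0.05. Without control 2, 7 P450 genes were called higher. Of 107 glutathione and glucuronosyl transferases, which conjugate such compounds, 13 rose and 2 fell. The largest increases were ugt-57 (2.00), ugt-39 (1.97) and ugt-66 (1.82), and ugt-63 and ugt-47 fell by 1.43 and 1.31. Between 8 and 17 of these transferases were called higher when arrays were left out in turn, the fewest without control 3 and the most without control 2, and 4 in place of 2 were called lower without either of these.

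Fat metabolism gave scattered calls. Of 65 fatty acid oxidation genes 6 rose and 2 fell, among them the carnitine transferase genes cpt-4, which rose by 1.66 (limma adjusted p = 0.0157), and cpt-6, which fell by 1.02 (limma adjusted p = 0.0982). Of this list 4 were called lower without control 3, 1 without control 2 or rapamycin array 2 and 0 without the other arrays. The elongase genes elo-7 and elo-4 rose by 1.84 and 1.34 and were the calls among 26 genes of fatty acid synthesis and desaturation, of which 4 were called higher without control 2. Of 59 aquaporins and solute transporters 8 rose and 0 fell in limma (5 lower at an unadjusted p under 0.05), of which 5 were P-glycoprotein genes, pgp-8, pgp-14, pgp-3, pgp-10 and pgp-5 (changes of 1.8, 1.28, 1.27, 1.21 and 1.04), and 1 was the intestinal peptide transporter pept-1 (1.08). The limma adjusted p of pgp-14, pgp-3 and pgp-5 were 0.152, 0.0524 and 0.141. Of these transporters 5 were called higher without control 1 or control 3, and 3 lower without control 2 or control 3. The insulin-like peptide genes ins-31, ins-5 and ins-33 rose by 2.01, 1.21 and 1.1 and ins-34 fell by 1.03, of 24 measured, with limma adjusted p of 0.0779 for ins-5 and 0.0511 for ins-34, although ins-31 lay below the dim bound in controls. Without control 2, 6 insulin-like genes were called higher, and ins-34 was not called without control 1, control 3 or rapamycin array 1.

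Genes of defence were mixed. C-type lectins bind sugars and many are induced by bacteria. Of 220, 22 rose (10%) and 6 fell, with clec-137 (2.55), clec-197 (2.28) and clec-219 (2.1, limma adjusted p = 0.0512) highest and clec-196 (-2.92), clec-222 (-2.1) and clec-266 (-1.99) lowest, these 3 with limma adjusted p of 0.0564, 0.0655 and 0.0572. Next to clec-219 among those that rose stood clec-41, at 2.05. Its signals were 11.28, 11.56 and 11.2 in rapamycin-treated worms and 9.57, 10.06 and 8.26 in N2 controls, whereas clec-137, clec-197, clec-219 and clec-222 lay below the dim bound in a group, so that their sizes are uncertain. Of 34 lysozymes and saposins 3 rose and 2 fell, with 7 higher without control 2, 4 lower without control 3 and 1 lower without rapamycin array 2 or 3. The lysozyme gene lys-3 had 11.41, 11.48 and 11.21 on rapamycin and 7.6, 10.67 and 8.64 in controls, and rose by 2.39 with all arrays (limma adjusted p = 0.0804) and by 3.24 without control 2 (limma adjusted p = 0.00323). Among 36 epidermal antimicrobial peptides 2 were called each way, and 8 were called higher without control 2 and 1 without control 3 or rapamycin array 1 or 3, while 1 was called lower without control 2 or rapamycin array 2 or 3.

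Receptor families gave few calls. Of 1276 chemoreceptor genes, most of them dim, 3 rose and 10 fell, shares of 0.235% and 0.784%, with 7 higher without control 2 and 3 lower without control 1. Of 259 nuclear hormone receptors 7 rose and 4 fell, and nhr-155 had the largest increase, 2.2, with 6.49, 6.55 and 6.35 on rapamycin against 4.21, 4.48 and 4.09, near background, in controls. Without control 2, 12 nuclear receptors were called higher, and without rapamycin array 2, 2 were called lower. Of 88 neuropeptide and processing genes nlp-62 rose (1.03, limma adjusted p = 0.116, called in 1 of the 6 fits that left out an array) and nlp-39 fell, with 11 higher without control 2, 0 higher without control 1 or rapamycin array 2 and 3 lower without control 1.

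Among the remaining lists, 5 of 58 abu and pqn genes, most of them of the pharyngeal cuticle, rose and 0 fell in limma (7 were lower at an unadjusted p under 0.05), with 10 higher without control 2, 3 without control 3 and 2 without control 1 or rapamycin array 2 or 3. Of 27 protein phosphatases 4 rose, which were gsp-3, gsp-4, ptp-5.1 and pph-1, and 2 were called without control 1 or rapamycin array 3. Of 26 aspartic and cathepsin proteases cpr-3 alone rose (1.43), with 2 higher without control 2. Of 48 carbohydrate metabolism genes pfk-1.2 rose (1.05, limma adjusted p = 0.0569, not called without control 1 or rapamycin array 3) and tre-5, a trehalase gene, fell (-1.47, limma adjusted p = 0.118). The call of tre-5 was made without control 1 and not without any of the other 5 arrays, and its change was -0.94 without control 3.

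Markers of other tissues were read in the same way. The intestine list had 4 of 15 called higher (dpf-6, act-5, pept-1 and ifb-2) and mtl-2 lower, with a summed linear signal of 40327 to 42433 on rapamycin inside the 37159 to 47126 of the controls. The limma adjusted p of act-5 and ifb-2 were 0.126 and 0.132, and the number called higher was 1 without control 3 and 2 without control 1 or any of the rapamycin arrays. Neuron markers had 1 of 27 called, tdc-1 (-1.32), 2 more higher without control 2, and sums of 14782 to 15859 on rapamycin and 12049 to 15784 in controls. Body wall muscle had 1 of 28 called, unc-52 (1.52, from a cross-hybridising probe set), 5 higher without control 2 and 2 without control 1, 26 with a positive change, a median of 0.52, against 0.58 for the epidermis list, and sums of 73731 to 82166 on rapamycin and 49579 to 75105 in controls. Pharynx muscle had 0 of 11 called by limma (2 higher at an unadjusted p under 0.05, and 2 called without control 2), with 14118 to 16082 on rapamycin and 8219 to 14666 in controls. The sums of the sperm list were 170528 to 224437 on rapamycin and 40605 to 156911 in controls, and those of the oocyte and germline list 89204 to 91581 on rapamycin and 98999 to 140637 in controls. Sums overlapped between groups for intestine, neuron, muscle and pharynx markers and did not for epidermis, sperm, oocyte and embryo genes. The part of tissue composition in the changes of single genes was not tested.

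Whether changes on rapamycin differed between N2 and eat-2 worms was tested with an interaction over 12 arrays. The eat-2 mutant has slow pharyngeal pumping and eats less, and it was treated in the same way. Among all genes 25.3% had an interaction adjusted p under 0.05, and of the 1557 genes called in N2 worms 1159 did. The interaction includes the N2 change, which favours called genes. The largest changes named here, 10 in each direction, are those among called genes with an adjusted p under 0.05 and arrays that do not overlap. For 9 of the 10 genes with the largest increases the N2 change was the higher one: rml-3 changed by 3.34 in N2 and by -1.02 in eat-2 worms (limma interaction adjusted p = 0.000442), and lpr-6 by 2.99 in N2 and -0.5 in eat-2 worms (0.000602). The exception was cyp-33C4, with 3.09 in N2 and 3.38 in eat-2 worms (limma interaction adjusted p = 0.615), and its neighbours cyp-33C5 and cyp-33C3 changed by 3.24 and 2.23 in eat-2 worms. Among the 10 largest decreases the interaction passed for pud-4, pud-3, nlp-39 and pap-3, of which pud-4, pud-3 and pap-3 lay below the dim bound on rapamycin in N2 worms. The heat shock genes hsp-16.41 and hsp-16.2 changed by -1.77 each in eat-2 worms and did not pass (limma interaction adjusted p of 0.0631 and 0.137).

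The gene groups were set beside eat-2 worms in the same way, where 1.2% of all genes were called higher on rapamycin and 1.93% lower. Of the 89 sperm genes, 18 rose in N2 worms and 33 fell in eat-2 worms, and 48 had an interaction adjusted p under 0.05. For fog-3 the changes were 2.18 in N2 and -0.05 in eat-2 worms (limma interaction adjusted p = 0.00662). Of the 95 cell cycle and replication genes 60 passed the interaction, and the list medians were -0.65 in N2 and 0.15 in eat-2 worms. All 5 yolk protein genes passed, with a list median of -1.41 in N2 and 0.01 in eat-2 worms. Of the 146 collagens 44 passed, beside 25.3% of all genes. Collagens were also called higher in eat-2 worms, 30 against the 35 in N2 worms, and the list medians were 0.39 in N2 and 0.43 in eat-2 worms. The calls did not all fall on the same genes. By symbol, grouped after their values had been seen, 9 of 24 dpy genes rose and 2 fell in N2 worms. In eat-2 worms 1 dpy gene rose and 2 fell. Of 128 col genes 20 rose and 1 fell in N2 worms, and 29 rose and 0 fell in eat-2 worms. Of the 11 small heat shock genes 4 passed, and the list medians were -1.5 in N2 and -0.72 in eat-2 worms. For fkb-5 the changes were 2.16 in N2 and -0.08 in eat-2 worms (limma interaction adjusted p = 0.00099).

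**Figure D5:**
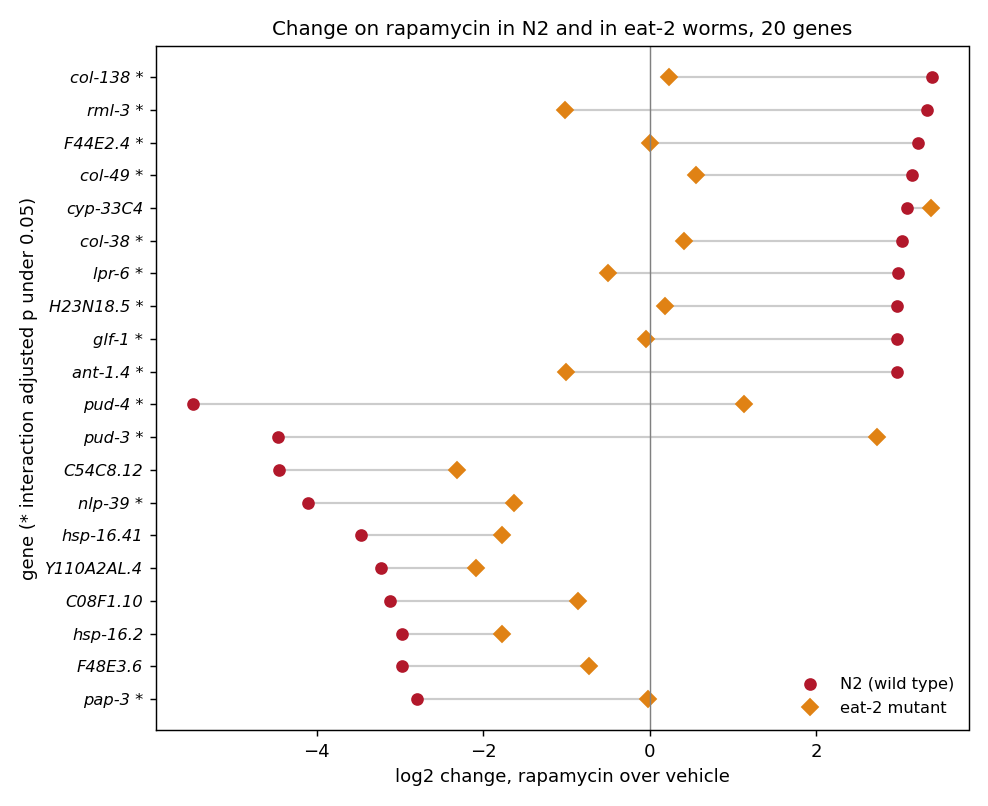
Log2 change, rapamycin over vehicle (horizontal axis), of the 10 genes with the largest increase and the 10 with the largest decrease in N2 worms (vertical axis), in N2 worms (red circles) and in eat-2 mutants (orange diamonds); asterisks mark a limma interaction adjusted p under 0.05. The genes were picked among called genes with an adjusted p under 0.05 and arrays that do not overlap. Changes in the eat-2 mutants lie nearer to 0 or on the other side of it for 13 marked genes, and cyp-33C4 is at 3.09 in N2 and 3.38 in eat-2 worms.

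Some called genes lay side by side on a chromosome. Neighbours were taken from the order of protein-coding genes in the RefSeq annotation (WBcel235), where a gene without a value ended a run. Of the genes called higher 191 stood in 88 runs of 2 or more neighbours, and of those called lower 120 stood in 55 runs. Runs of 3 or more numbered 22. They include lpr-3, lpr-6, lpr-5 and lpr-4 (2.1 to 2.99) and cyp-33C4, cyp-33C3 and cyp-33C5 among those that rose, and skr-13, skr-9 and skr-8 (-1.72 to -1.56), ekl-5, meg-2 and meg-1 (-1.6 to -1.33) and T26C11.4, ceh-41 and ceh-21 (-1.75 to -1.05) among those that fell. Neighbours of one family can share probe sequence, and the number of runs was not compared with another order of the genes.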

How the data were processed

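Whole-worm RNA was read on Affymetrix C. elegans arrays. The authors deposited log2 values of 22625 probe sets, made by RMA in Expression Console, for which the version is not given in the sources used here. The 77 control probe sets were left out, and of the remaining 22548, 20766 had a single gene symbol, 887 had several and 895 had none. The 6 N2 arrays were compared with limma 3.58.1 (lmFit, eBayes) in R 4.3.3, and strains with an interaction over 12 arrays. Each gene took the value of its brightest probe set (17118 genes, of which 17076 matched RefSeq and 0 had a changed symbol). RMA values keep no depth, and the number of arrays limits the precision. The alternatives were an unmoderated equal-variance test of 2 groups, a single fit of 15 arrays, a replicate block and no dimmest 25%. Others were 2 normalizations, another variance model and each array left out. Probe sets whose names end in _x_at or _s_at can bind related genes.

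Named genes are those with the largest changes, 20 in each direction, among called genes with an adjusted p under 0.05 and arrays that do not overlap, up to 4 called members each way of each of 45 lists, and the TOR list with the predicted targets. Members, lists and rule were chosen with earlier results of these data known, and other genes were named after their values were seen. The fits were run on simulated data with planted changes and, for each probe set, independent noise of the same size in both groups. The real controls spread more than the rapamycin arrays, so that this run checks the code and not the stability of the calls. Promoter and protein sequences were not analysed here, and 1 gene of the TOR list is not reported here.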

Additional observations from a re-analysis of the deposited data

Results flagged for a closer look

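For 13 of the 20 genes with the largest changes in N2 worms, the change on rapamycin differed between strains in the limma interaction over 12 arrays. The 20 were picked by their N2 change among called genes with an adjusted p under 0.05 and arrays that do not overlap. The interaction includes the N2 change, so that a pass is favoured. Among all genes 25.3% passed, and of the 1557 genes called in N2 worms 1159 did. Each value here is the N2 change minus the eat-2 change on the log2 scale. Over the 146 collagens the list medians were 0.39 in N2 and 0.43 in eat-2 worms. The surface and cuticle genes among these 13 had higher changes in N2 worms, with differences of 3.15 for col-138 (interaction adjusted p = 0.00302), 2.6 for col-49 (0.00602), 2.61 for col-38 (0.0196), 3.49 for lpr-6 (0.000602), 4.36 for rml-3 (0.000442) and 3.02 for glf-1 (0.00483). The adenine nucleotide carrier gene ant-1.4 had 3.98 (0.00488), and F44E2.4 and H23N18.5, which have no gene name, had 3.22 (0.00392) and 2.8 (0.0317). In the other direction, pud-4 had -6.63 (0.000228), pud-3 had -7.21 (0.00453), the poly(A) polymerase gene pap-3 had -2.78 (0.00851) and nlp-39 had -2.47 (0.0478). For rml-3, lpr-6, ant-1.4, glf-1, pud-3 and pud-4 the fitted changes had opposite signs in the strains. The eat-2 changes of lpr-6, ant-1.4 and glf-1 had limma adjusted p of 0.101, 0.125 and 0.925, so that a reversal is not shown for them. With groups of 3 arrays, no test for a stray array was made within a group.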

How the results depend on the processing

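The 1897 called probe sets became 1486 to 2066 under the 7 other settings and 1378 to 3082 when arrays were left out in turn, with 856 to 1828 called higher and 522 to 1254 called lower, the most without control 2. The 2116 at an adjusted p under 0.05 became 7785 in a single fit of all 15 arrays, 156 with a replicate block and 10 with the unmoderated test. Leaving out arrays gave 0 to 6889, namely 1753, 6889 and 325 without controls 1, 2 and 3, and 32, 102 and 0 without rapamycin arrays 1, 2 and 3, where limma still gave 4831 probe sets at an unadjusted p under 0.05 without rapamycin array 3. The main fit does not pair arrays by replicate number. The deviations of same-numbered arrays correlated at -0.02, -0.01 and 0.08, but whether such arrays were processed together is not stated. The replicate block called 1914 probe sets at the study's threshold. The interaction, 5507 at an adjusted p under 0.05, ranged from 3267 (without N2 rapamycin 3) to 8513 (without N2 control 2), with 3600 without eat-2 control 2 and 3440 and 3609 without eat-2 rapamycin 1 and 3. Of 179 called named genes, 147 to 179 stayed called under the other settings and 146 to 173 with an array left out, and 0 changed sign. The settings that lost most were the unmoderated test and the omission of control 1. Median centring moved the median of all genes to -0.12, and called 170 of the 179. A group mean lay under the dim bound for 216 of the called probe sets, whose change sizes are uncertain.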
